A study of Mus musculus with 8 samples.

Results

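The cytosolic ribosome is built from ribosomal RNA and a large set of small, mostly basic proteins, and the transcripts of those proteins are among the most strongly translated messages of a growing cell. They were taken here as all protein-coding genes whose mouse symbol is Rpl or Rps followed by a number with an optional letter, l or x, together with Rplp0 to Rplp2 and Rpsa. Rps6k kinases and pseudogenes were left out. The rule used gene names only and found 81 of the 27679 listed genes, 50 of the large subunit (60S) and 31 of the small subunit (40S). Of these, 76 are canonical subunits and 5 are paralogs (Rpl3l, Rpl10l, Rpl39l, Rpl36al and Rps27l). The rule does not reach ribosomal proteins with other kinds of name, such as Rps3a1, Fau and Rack1, whose values are given where they bear on the members.

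The cells were megakaryocytes, the large polyploid marrow cells that shed platelets, grown from lineage-negative bone marrow cells of wild-type C57BL/6 mice. The hydrogel group had 4 libraries from cells kept for 3 days in a soft gel made with 2% methylcellulose, whose Young modulus was 30 to 60 Pa. The liquid group had 4 libraries from cells kept for the same 3 days in liquid medium, and in both groups the larger mature cells were enriched on a 2 to 4% BSA gradient. The labels describe 4 independent biological replicates per culture, give no age for the mice, and do not say whether marrow was pooled. The comparison asks what culture in the soft gel does to the transcripts of these cells.

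In a megakaryocyte the ribosome supply matters because the cell enlarges its cytoplasm before it sheds platelets, and platelets inherit both ribosomes and mRNA from it. Most ribosomal protein messages belong to the TOP (terminal oligopyrimidine) class, which begins with a C followed by a run of pyrimidines and is translated under control of the mTOR kinase through the protein Larp1. Their output is thus known to be set largely at translation, which RNA-seq does not measure. Mammalian genomes also hold many processed pseudogenes of ribosomal protein genes, which are copies of the mRNA inserted back into the genome, so short reads from these transcripts often match more than 1 place.

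Libraries held 27012172 to 49281611 counts, and 13845 genes had enough counts for the test. Of 23 tested monocyte and macrophage markers, 20 rose in hydrogel, with summed levels of 6246 to 14116 CPM (counts scaled to a common library size with TMM factors, which allow for differences in composition) in hydrogel and 1613 to 3469 CPM in liquid. Of 20 megakaryocyte and platelet markers, 14 fell, with summed levels of 32219 to 45752 CPM in hydrogel and 38033 to 60875 CPM in liquid, so the defining markers of the labelled cell type were high in every library. Of 8 tested mast cell and basophil markers 7 fell, with summed levels of 77.4 to 192 CPM in hydrogel and 138 to 594 CPM in liquid, and of 9 dendritic cell markers 6 fell and 1 rose, with 67.0 to 112 CPM in hydrogel and 67.4 to 129 CPM in liquid. Liquid 2 had the highest sum of both lists. No marker of these lists was at 0 counts over all libraries, and the part of other cell types in the results on ribosomal proteins was not tested. A fit with a macrophage score is given with the calls, but it cannot separate that score from culture. By the macrophage markers, hydrogel 1 was the lowest hydrogel library and liquid 2 the highest liquid one, so both lay nearest the other culture. In such bulk samples, fewer cells of a type and less RNA per cell cannot be told apart.

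The first feature of these transcripts is how many near-identical copies they have. Among annotated mouse transcripts (GENCODE M21, build GRCm38), 76 of the 81 members had at least 1 other gene matching their coding sequence at 90% identity or more over at least 80% of its length. The median member had 9 such copies, and Rpl21, a large subunit protein, had 77. The first 60 coding bases of Rps27, a zinc-finger protein of the small subunit, show the extreme case, in which Rps27rt, a second gene on chromosome 9, carries the same letters as Rps27 on chromosome 3, while the paralog Rps27l on chromosome 9 differs at 18 positions, printed in capitals.

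Rps27: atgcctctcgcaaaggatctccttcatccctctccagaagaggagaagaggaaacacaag
Rps27rt: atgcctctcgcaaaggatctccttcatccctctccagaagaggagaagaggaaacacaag
Rps27l: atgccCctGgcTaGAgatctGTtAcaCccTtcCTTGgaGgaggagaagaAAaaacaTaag

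Over all 8 libraries Rps27 held 312 counts and Rps27rt held 250, whereas Rps27l held 17596. The deposited counts thus gave the divergent paralog most of the Rps27-type counts.

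Across the members, the measured level per length followed the closeness of the nearest copy. The 25 members with a 100% identical coding copy had a median of 10.4 CPM per kb of transcript, and the 32 whose closest copy was 99% to under 100% identical had 42.6. Members whose closest copy was under 99% identical numbered 19 and had a median of 215 CPM per kb. The 5 members with no such copy had a median of 379, although 2 of them, the tissue-restricted paralogs Rpl3l and Rpl39l, lay far lower. Spearman's rho between closest-copy identity and level was −0.65 over 76 members. Other measures were more weakly related to level, though over a set that also holds the 5 members with no copy. Over 81 members rho was 0.39 for the share of short transcript windows that are unique. For the number of copies it was −0.25, and for coding length 0.01, again over 81 members. All are descriptions of points that share the same libraries. Levels of different members are therefore not compared here as transcript abundance, and every change below is between cultures for the same gene.

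**Figure D1:**
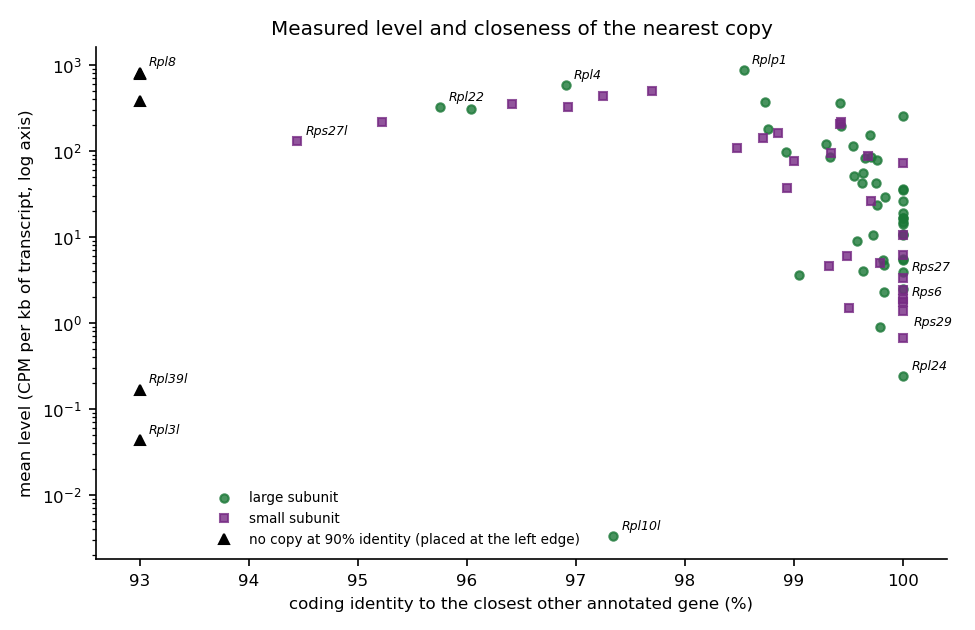
Mean level over the 8 libraries (CPM per kb of transcript, log axis) against the percent coding identity of the closest other annotated gene, for the 81 members. Green circles are large subunit members, purple squares small subunit members, and black triangles the 5 members with no copy at 90% identity, placed at the left edge. The median is 10.4 CPM per kb for the 25 members with a 100% identical copy and 42.6 for the 32 at 99% to under 100%.

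By the same scale high members were Rplp1, a protein of the acidic stalk that recruits elongation factors, with 869 CPM per kb, and Rpl8, a core protein of the large subunit, with 818. Without correction for length, Rpl4 held 904 CPM and Rps3, which lies at the mRNA entry channel, held 723 CPM, and the 5 members with the most counts, Rpl4, Rps3, Rpl8 and Rplp0 among them, held 42.9% of the members' summed CPM as counted, which need not be their share of transcripts. The lowest were Rpl10l, with 1 count in 1 hydrogel library and 0 counts in the other 7 libraries, Rpl3l and Rpl39l. Rpl10l is the testis-expressed paralog of Rpl10. Those 3 paralogs and Rpl24 did not reach the filter on low counts, so 77 members were tested, 46 of the large and 31 of the small subunit. Rpl3l had 5, 2, 5 and 0 counts in hydrogel and 0, 1, 3 and 0 in liquid, and Rpl39l had 10, 5, 0 and 7 counts in hydrogel and 1, 0, 1 and 1 in liquid. Rpl24, a canonical large subunit protein with a 100% identical copy, had 7, 6, 4 and 2 counts in hydrogel and 1, 7, 8 and 10 in liquid.

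The share of each library taken by the members together was close between cultures. They held 0.801, 0.835, 0.786 and 0.847% of the counts in hydrogel, and 0.877, 0.869, 0.659 and 0.745% in liquid. Hydrogel libraries thus lay inside the range of the liquid ones, with means of 0.817 ± 0.0287% in hydrogel and 0.787 ± 0.105% in liquid (SD, n = 4 each). The spread came mostly from liquid, where liquid 1 was the highest library for 34 members and liquid 3 the lowest for 21, while hydrogel 3 was the lowest for 20. The 236 listed ribosomal protein pseudogenes added counts equal to 0.914 to 1.05% of the members' own.

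Large and small subunit transcripts moved together from library to library. The median of the large subunit members' levels, each centred on its own mean on the log2 scale, was −0.00, −0.03, −0.10 and 0.01 in hydrogel and 0.21, 0.11, −0.10 and −0.01 in liquid. For the small subunit it was −0.00, −0.04, −0.10 and 0.02 in hydrogel and 0.19, 0.11, −0.14 and 0.04 in liquid. The 2 subunits differed by less than 0.05 in every library, while libraries of liquid culture differed by more than 0.3 among themselves.

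The ratio of summed large to summed small subunit counts, which does not depend on the scaling of libraries, was 1.25, 1.30, 1.27 and 1.27 in hydrogel and 1.20, 1.23, 1.24 and 1.23 in liquid. The cultures did not overlap, with means of 1.27 ± 0.0179 in hydrogel and 1.23 ± 0.0192 in liquid (SD, n = 4 each). When each of the 81 members was left out in turn, the cultures overlapped without Rpl4 and without Rpl8 and not without any other. Without Rpl4 the hydrogel libraries lay at 0.987 to 1.01 and the liquid ones at 0.969 to 1.01, and without Rpl8 they lay at 1.05 to 1.09 in hydrogel and 1.01 to 1.05 in liquid. Without the 5 members with the most counts the means lay the other way, at 1.03 ± 0.0142 in hydrogel and 1.06 ± 0.0210 in liquid, again with overlap.

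**Figure D2:**
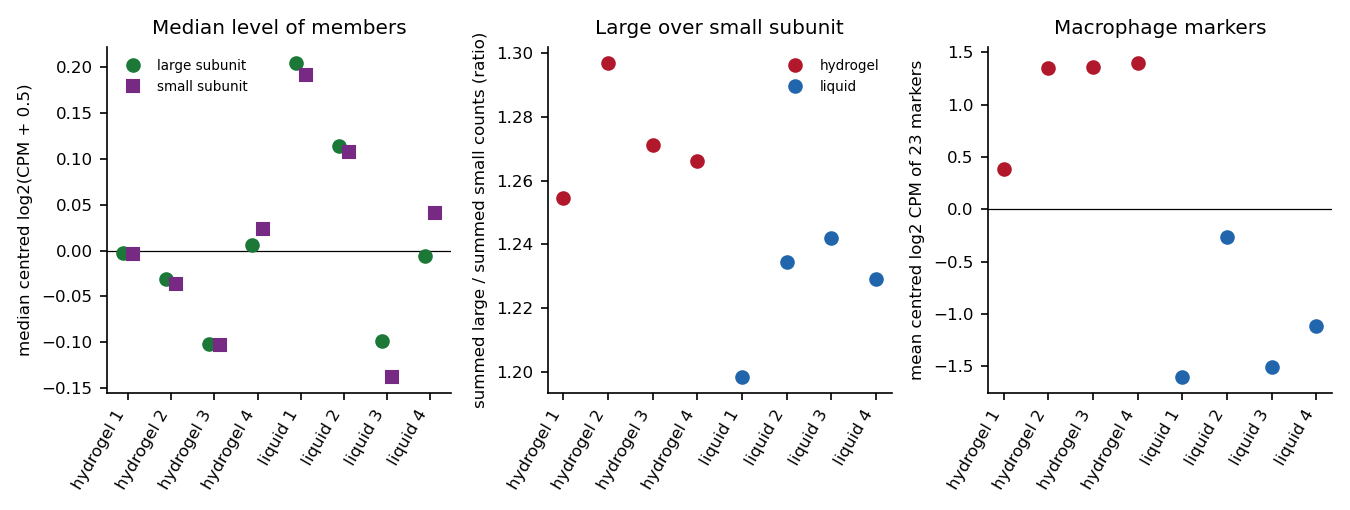
Left, the median level of large (green circles) and small subunit members (purple squares) in each library, in log2(CPM + 0.5) centred on each gene's mean. Middle, the ratio of summed large to summed small subunit counts, and right, the mean centred log2 CPM of 23 macrophage markers, with hydrogel in red and liquid in blue. The subunits move together and liquid 1 is highest. Liquid 3 is lowest for the small subunit, and hydrogel 3 (−0.102) lies just below liquid 3 (−0.098) for the large. Hydrogel 1 has the lowest macrophage score of the hydrogel libraries at 0.38.

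Tested gene by gene, few members changed between hydrogel and liquid. By edgeR's quasi-likelihood test with Benjamini-Hochberg adjustment over all 13845 genes at 0.05, 1 member rose (Rps2) and 5 fell (Rpl15, Rpl13a, Rpl5, Rpl27a and Rpl39). Over all tested genes 15.1% rose, 14.1% fell and 29.3% did either, against 7.79% of the members. At an unadjusted p under 0.05 there were 13 members, 16.9% of those tested, against 41.2% of all tested genes. The median standard error of a log2 fold change was 0.107 for members and 0.128 for all tested genes, and at a mean of at least 10 CPM it was 0.0965 for members and 0.0934 for all tested genes. The 95% interval of the fold change lay wholly within 1.5-fold for 52 of 77 members (67.5%) and within 2-fold for 72 (93.5%), against 50.5% and 71.6% of all tested genes.

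The median log2 fold change of hydrogel over liquid was −0.06 for the members, −0.06 for the large subunit and −0.05 for the small subunit, beside −0.01 for all tested genes. It was below 0 for 51 members and above 0 for 26. The sign of that median depends on the scaling: it was −0.11 with upper-quartile scaling and 0.00 with library totals alone, where all tested genes had −0.06 and 0.05. Relative to all tested genes it was −0.04 to −0.05 under each of the 5 scalings compared. All 4 hydrogel libraries lay above all 4 liquid ones for 1 member (Rps2) and below them for 6 (Rpl5, Rpl13a, Rpl15, Rpl21, Rpl39 and Rps12), where 14.6% of all tested genes lay above and 13.8% below.

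Calls were split by level. Of the 51 members with a mean of at least 10 CPM, 6 passed (11.8%), against 32.9% of all tested genes at that level. The intervals of all 51 lay within 2-fold, as did those of 89.1% of all tested genes at that level. Of the 26 tested members under 10 CPM, 0 passed by edgeR, 3 (11.5%) had an unadjusted p under 0.05, and 7 (26.9%) had an interval within 1.5-fold. Over all tested genes of any level these shares were 29.3%, 41.2% and 50.5%. At a mean of at least 10 CPM they were 32.9%, 45.4% and 72.9%, so among genes under 10 CPM each was below its value for any level. The shares under 10 CPM were not taken, so the shares of any level are too high a background for the 26.

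**Figure D3:**
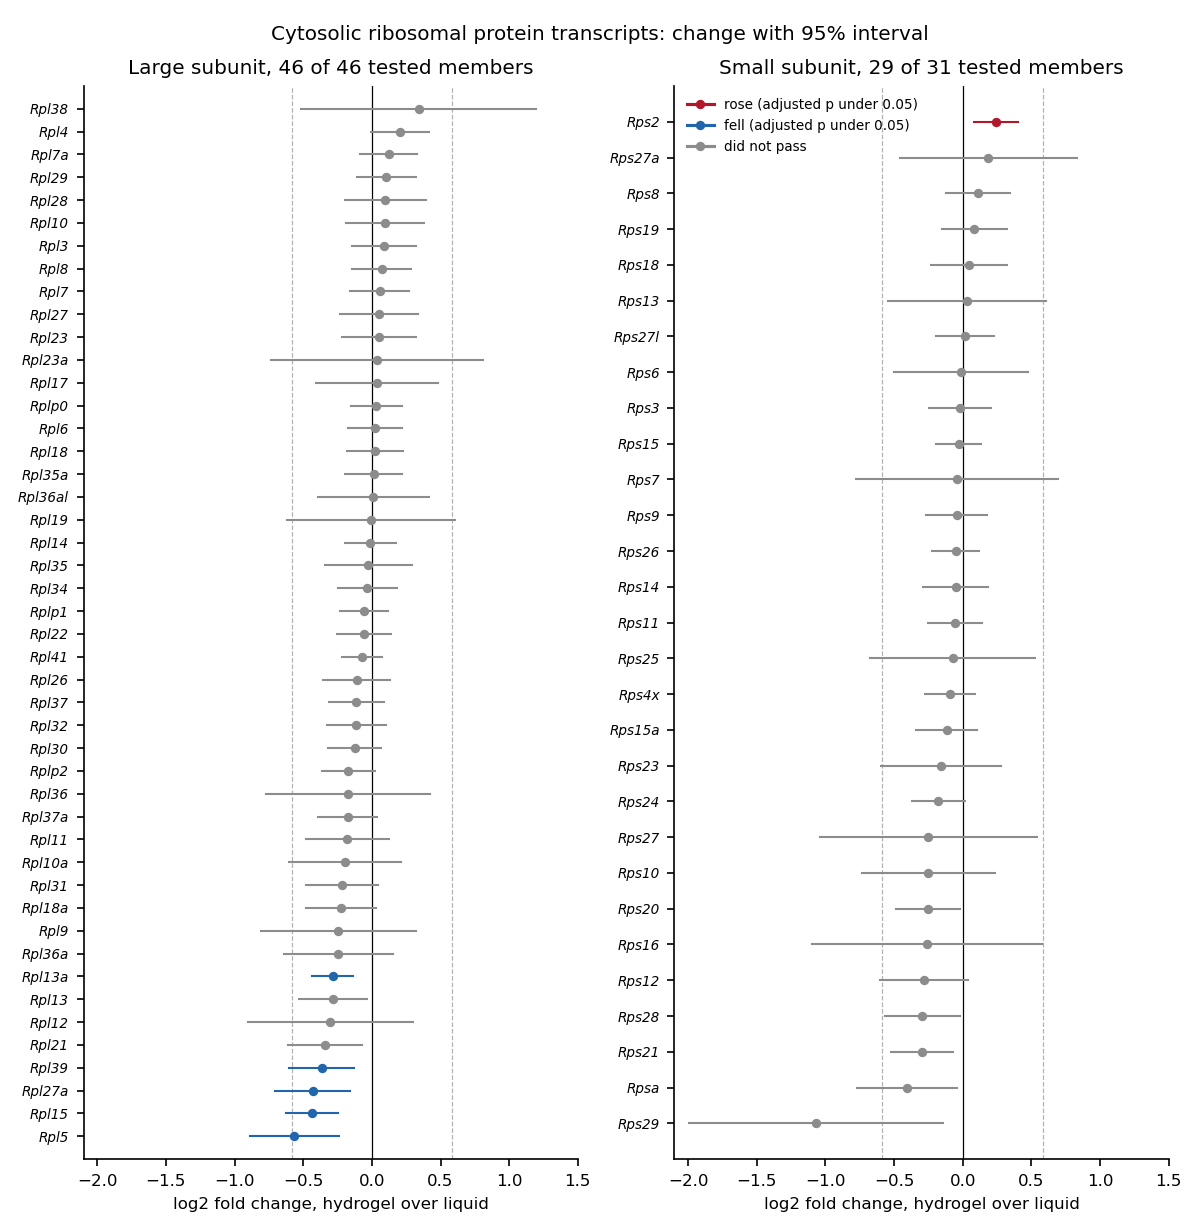
Log2 fold change of hydrogel over liquid with its 95% interval for the 46 large subunit members (left) and 29 of the 31 small subunit members (right) that were tested. Dashed lines mark 1.5-fold, red the member that rose, blue the 5 that fell and grey those that did not pass. Most points lie within the dashed lines, and the widest intervals belong to members with few counts such as Rps29 and Rpl38.

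In the large subunit 5 members fell and 0 rose. Rpl15 (ENSMUSG00000012405), which sits in the core of the 60S particle and is needed to process its ribosomal RNA, had 24.0, 23.1, 22.7 and 25.7 CPM in hydrogel and 32.5, 32.9, 28.6 and 35.4 CPM in liquid. Every hydrogel library was below every liquid library, and the log2 fold change was −0.44 ± 0.09 (SE), or 1.36-fold lower, with an adjusted p of 0.00426 by edgeR.

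Rpl13a (ENSMUSG00000074129), known besides its place in the ribosome for the interferon-gamma-activated silencing complex of human monocytes, had 36.3, 32.0, 34.0 and 35.4 CPM in hydrogel and 43.6, 42.3, 40.4 and 41.3 CPM in liquid. The groups again did not overlap, with a log2 fold change of −0.28 ± 0.07 (SE), or 1.22-fold lower, and an adjusted p of 0.0108 by edgeR.

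Rpl5 (ENSMUSG00000058558) carries the 5S ribosomal RNA into the large subunit together with Rpl11, and the free pair is known to bind Mdm2 and so stabilise p53. It had 8.96, 9.68, 7.59 and 9.71 CPM in hydrogel and 13.3, 16.2, 10.5 and 13.2 CPM in liquid. Its change was the largest of the members that passed, at −0.56 ± 0.15 (log2, SE), or 1.48-fold lower, with an adjusted p of 0.0160 by edgeR. Its partner Rpl11 had 4.36, 4.53, 3.54 and 4.30 CPM in hydrogel and 4.53, 4.87, 4.82 and 4.76 CPM in liquid, with a log2 fold change of −0.18 ± 0.14 (SE) that did not pass (adjusted p 0.349 by edgeR).

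Rpl27a (ENSMUSG00000046364), a core protein of the large subunit, had 15.3, 12.4, 14.7 and 16.8 CPM in hydrogel and 21.3, 20.9, 16.2 and 21.4 CPM in liquid. Hydrogel 4 lay above liquid 3, so the groups overlapped by that pair of libraries. The log2 fold change was −0.43 ± 0.12 (SE), with an adjusted p of 0.0256 by edgeR. Rpl39 (ENSMUSG00000079641), a very small protein lining the exit tunnel for the nascent chain, had 49.9, 41.8, 39.3 and 50.8 CPM in hydrogel and 64.1, 55.7, 51.4 and 63.2 CPM in liquid. Hydrogel 4 came within 1 CPM of liquid 3 without crossing it, and the log2 fold change was −0.37 ± 0.11 (SE; adjusted p 0.0267 by edgeR).

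In the small subunit, Rps2 (ENSMUSG00000044533), which lies near the mRNA entry channel, had 251, 227, 230 and 235 CPM in hydrogel and 218, 205, 188 and 186 CPM in liquid. It was higher in every hydrogel library, with a log2 fold change of 0.24 ± 0.07 (SE), or 1.18-fold, and an adjusted p of 0.0304 by edgeR. It is also a gene with many copies, since 47 annotated genes match its coding sequence and 21% of the 50-base windows of its transcript are unique. The same share was 24.8% for Rpl15, 42.6% for Rpl13a, 6.16% for Rpl5, 64.1% for Rpl27a and 83.5% for Rpl39. How reads with several matches were counted is not given in the sources used here, and the part of such reads in these changes was not tested.

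**Figure D4:**
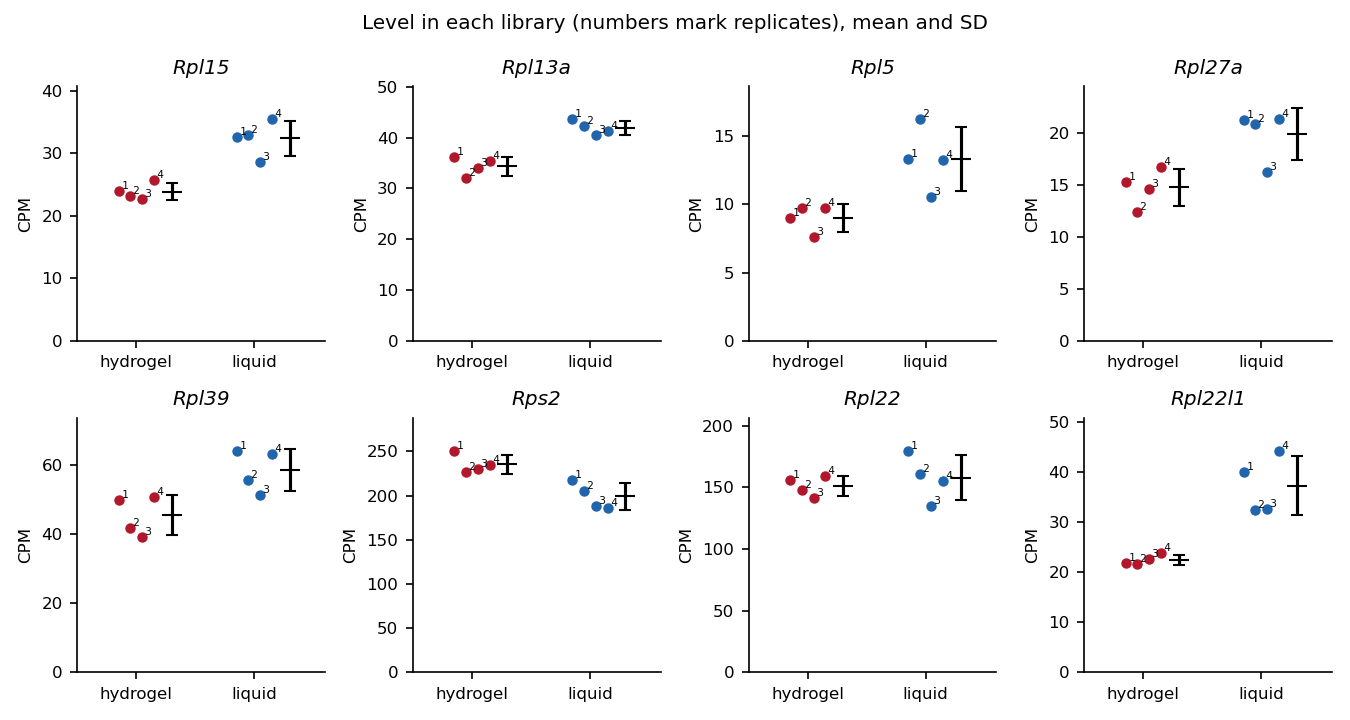
CPM in each library for the 5 members that fell, for Rps2, which rose, and for Rpl22 with its paralog Rpl22l1, which is no member. Points are libraries with their replicate number, hydrogel in red and liquid in blue, and black bars are mean and SD (n = 4 each). Hydrogel libraries lie wholly below liquid ones for Rpl15, Rpl13a, Rpl5, Rpl39 and Rpl22l1, and wholly above them for Rps2.

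The calls differed in how far they rested on single libraries and on scaling. Rpl15 passed when any 1 library was left out and under each of the 5 scalings, and Rpl13a and Rpl5 likewise except with library totals alone, where their log2 fold changes were −0.22 and −0.51. Rpl27a and Rpl39 no longer passed with library totals alone or when hydrogel 2, hydrogel 3, liquid 1 or liquid 4 was left out. Rps2 no longer passed with upper-quartile scaling, without the filter on low counts, or when any of the 4 hydrogel libraries, liquid 3 or liquid 4 was left out, with log2 fold changes of 0.21 to 0.29 over the 8 leave-outs. Leaving out liquid 3 raised the number of members that fell to 12, and leaving out both hydrogel 1 and liquid 2 raised the number that rose to 3 (Rps2, Rpl3 and Rpl7a). The share of all tested genes called in those 2 fits was not set beside these counts, so a change particular to the members cannot be read from them.

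The macrophage markers separate the cultures, with scores of 0.38, 1.35, 1.36 and 1.40 in hydrogel and −1.60, −0.27, −1.51 and −1.11 in liquid. With that score as a covariate 0 of 77 members passed by edgeR and 4.32% of all tested genes did. In that fit the log2 fold changes were −0.54 for Rpl15, −0.20 for Rpl13a, −1.02 for Rpl5, −0.53 for Rpl27a, −0.15 for Rpl39 and 0.34 for Rps2. In size, 4 of the 6 were larger than without the covariate. Their standard errors were also larger, at 0.21 for Rpl15 and 0.17 for Rps2, beside 0.085 and 0.072 without the covariate. Because the scores of the cultures do not overlap, this fit cannot separate culture from macrophage marker level. Neither the lost calls nor the changed sizes are read further.

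Large fitted changes of members with few counts did not pass. Rps29, a zinc-binding protein of the small subunit, had 0.411, 0.437, 0.219 and 0.291 CPM in hydrogel and 1.03, 0.855, 0.308 and 0.740 CPM in liquid. Only liquid 3 reached into the hydrogel range, and the log2 fold change was −1.07 ± 0.42 (SE; adjusted p 0.0793 by edgeR). Rpl38, known in mouse for a role in translating Hox messages, had 1.18, 1.06, 1.13 and 0.421 CPM in hydrogel and 1.03, 0.953, 0.572 and 0.476 CPM in liquid. Its groups overlapped through hydrogel 4, and its log2 fold change of 0.34 did not pass (adjusted p 0.542 by edgeR).

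Rpsa, which is also known as a laminin receptor, had 7.56, 5.72, 5.73 and 6.18 CPM in hydrogel and 8.47, 10.6, 6.80 and 7.67 CPM in liquid, with a log2 fold change of −0.41 that did not pass (adjusted p 0.0877 by edgeR). Rpl4, which lines the exit tunnel, had 966, 1014, 938 and 951 CPM in hydrogel and 942, 885, 737 and 798 CPM in liquid. The overlap was confined to hydrogel 3 and liquid 1, and the log2 fold change of 0.20 ± 0.09 (SE) did not pass (adjusted p 0.136 by edgeR). Rps27a, made as a fusion with ubiquitin, averaged 3.35 ± 1.04 CPM in hydrogel and 2.95 ± 0.912 CPM in liquid. The large subunit protein Rpl7a averaged 40.7 ± 5.08 CPM in hydrogel and 37.4 ± 1.26 CPM in liquid (SD, n = 4 each), and neither Rps27a nor Rpl7a passed.

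Several members with a known part in disease or signalling stayed within their spread. Rps19, the gene most often mutated in Diamond-Blackfan anaemia, averaged 107 ± 6.35 CPM in hydrogel and 101 ± 15.6 CPM in liquid (SD, n = 4 each), and the 95% interval of its log2 fold change ran from −0.15 to 0.32. Rps6, the substrate of the S6 kinases, had 1.18, 1.87, 1.39 and 1.68 CPM in hydrogel and 1.54, 1.68, 1.30 and 1.67 CPM in liquid. Those levels mix fully in order, and the interval of the log2 fold change was −0.50 to 0.48. Rps4x, the X-linked S4 protein, averaged 102 ± 6.54 CPM in hydrogel and 109 ± 10.4 CPM in liquid (SD, n = 4 each).

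The stalk proteins of the large subunit did not pass either. Rplp0, the stalk base, had 523, 514, 506 and 523 CPM in hydrogel and 563, 523, 455 and 477 CPM in liquid, with an interval of −0.15 to 0.22 on the log2 scale. Rplp1 averaged 425 ± 18.3 CPM in hydrogel and 442 ± 33.9 CPM in liquid, and Rplp2 averaged 145 ± 3.81 CPM in hydrogel and 163 ± 19.5 CPM in liquid (SD, n = 4 each). The interval of Rplp1 was −0.23 to 0.12 and that of Rplp2 −0.37 to 0.02.

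Paralog pairs, which can exchange a protein of the ribosome for a close relative, were compared next. Rpl22, an RNA-binding protein of the large subunit, had 156, 148, 142 and 159 CPM in hydrogel and 180, 161, 135 and 155 CPM in liquid, and did not pass (log2 fold change −0.06, adjusted p 0.646 by edgeR). Its paralog Rpl22l1, which the naming rule leaves out, had 21.9, 21.6, 22.7 and 23.7 CPM in hydrogel and 40.1, 32.3, 32.5 and 44.2 CPM in liquid. The hydrogel libraries were tightly grouped below all liquid ones, and the log2 fold change was −0.73 ± 0.11 (SE), or 1.66-fold lower, with an adjusted p of 0.00123 by edgeR. The difference between the changes of Rpl22 and Rpl22l1 was not tested. Of the 50-base windows of Rpl22l1 34.4% are unique, and 3 annotated genes match its coding sequence, the closest at 99.7% identity. For Rpl22 the share is 75.5%, with 4 such genes and the closest at 95.8%. The part of reads with several matches in the change of Rpl22l1 was not tested.

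Of the pair Rpl39 and Rpl39l, Rpl39 fell and Rpl39l was too low to test. In the next 3 pairs neither partner passed. Rps27l averaged 65.1 ± 6.54 CPM in hydrogel and 64.4 ± 6.76 CPM in liquid, and Rps27 averaged 1.05 ± 0.319 CPM in hydrogel and 1.27 ± 0.582 CPM in liquid. Rpl36al averaged 5.62 ± 1.38 CPM in hydrogel and 5.59 ± 0.456 CPM in liquid, and Rpl36a averaged 2.46 ± 0.352 CPM in hydrogel and 2.92 ± 0.373 CPM in liquid. Rpl7l1, a nucleolar relative of Rpl7, averaged 86.7 ± 3.18 CPM in hydrogel and 80.6 ± 6.33 CPM in liquid, and Rpl7 averaged 212 ± 6.21 CPM in hydrogel and 204 ± 29.3 CPM in liquid (SD, n = 4 each throughout).

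Rpl3 and Rpl10, whose paralogs Rpl3l and Rpl10l were too low to test, averaged 40.4 ± 2.95 and 11.6 ± 0.400 CPM in hydrogel, against 38.0 ± 5.53 and 10.8 ± 1.77 CPM in liquid. Neither passed. The same held for ribosomal proteins that the rule does not reach: log2 fold changes were 0.07 for Rack1, a scaffold on the small subunit, 0.07 for Fau, which is made as a fusion with a ubiquitin-like protein, and −0.03 for Rps3a1.

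The start of the genes was examined because the TOP class is defined there. Of the 81 members, 61 had an entry among the RefSeq promoter windows (build GRCm38.p6, 250 bases before to 50 after the annotated start). A start on C followed by pyrimidines, with a run of at least 5 in all, was found at 13 of the 61 (21.3%), against 3.01% of 27025 genes in the same table. The motif CGGAAG, the core recognised by ETS factors, occurred on either strand in at least 1 window of 68.9% of these members. The same held for 18.8% of all genes in that table. The TATAAA motif, counted likewise, occurred in 9.84% of these members and 15.7% of all genes. These are matches of letters, and base composition was not taken into account. For Rps6 and Rpl15 as starts of this type, and for Rpl5 and Rps2 as starts without the run, the lines give 20 bases before to 10 bases after the annotated start, in transcript direction with the pyrimidine run from the start in capitals. The windows are chr4:86857358-86857387, minus strand, for Rps6, chr14:18270977-18271006, minus strand, for Rpl15, chr5:107900508-107900537, plus strand, for Rpl5, and chr17:24720043-24720072, plus strand, for Rps2.

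Rps6: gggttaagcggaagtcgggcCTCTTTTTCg
Rpl15: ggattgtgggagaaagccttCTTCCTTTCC
Rpl5: ctctttctcacgtcgcttgcgtgctggtgg
Rps2: tgcgtaggcagtcgagatctCgcgcttctt

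The Rpl5 window holds its pyrimidine run ctctttctc upstream of the annotated start, so annotated starts may miss the start in use, and the count of 13 applies to the annotation. Members with the TOP-type start had a median log2 fold change of −0.03 (n = 13 tested, −0.44 to 0.34) and those with another annotated start −0.07 (n = 44 tested, −0.56 to 0.24). The ranges overlap nearly in full.

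Genes that make or use ribosomes were listed for comparison. Of 92 tested factors of ribosome biogenesis and the nucleolus, 17 rose (18.5%, beside 15.1% of all tested genes) and 1 fell (1.09%, beside 14.1%), with a median log2 fold change of 0.16 beside −0.01 for all tested genes. Pno1, which helps mature the small subunit, had 51.6, 56.7, 56.7 and 54.0 CPM in hydrogel and 40.3, 45.2, 35.5 and 39.0 CPM in liquid, without overlap, and rose by 0.45 ± 0.08 (log2, SE; adjusted p 0.00280 by edgeR). Imp4, an early processing factor, Polr1a, the largest subunit of RNA polymerase I, and Rrp12, an export factor of both subunits, rose as well, by 0.34, 0.46 and 0.36.

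Of 32 initiation factors 5 rose (15.6%, beside 15.1% of all tested genes) and 2 fell (6.25%, beside 14.1%). Eif3a, the largest scaffold of the eIF3 complex, rose by 0.33 and Eif5 by 0.29 on the log2 scale. Eif4a2, an RNA helicase of initiation, had 52.7, 38.4, 47.3 and 45.6 CPM in hydrogel and 68.7, 77.7, 76.6 and 75.6 CPM in liquid, which is 1.62-fold lower (adjusted p 0.000799 by edgeR), and Eif1b fell by 0.38. Of 12 elongation and release factors 0 passed by edgeR, with 3 at an unadjusted p under 0.05, and of 13 genes that host small nucleolar RNAs 0 passed, with 2 at that level. Beside these, 29.3% of all tested genes passed by edgeR and 41.2% had an unadjusted p under 0.05. Whether lists of 12 and 13 genes differ from those shares was not tested.

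Messages of the TOP class outside the ribosome also gave few calls, with 1 of 21 up and 1 down (4.76% each, beside 15.1% and 14.1% of all tested genes) and a median log2 fold change of −0.00. The one that rose was Vim, the intermediate filament vimentin, with 264, 603, 676 and 545 CPM in hydrogel and 88.7, 198, 79.4 and 104 CPM in liquid. Hydrogel 1 and liquid 2 were the nearest libraries of the 2 cultures there, as they were in the macrophage markers. The one that fell was Nap1l1, a histone chaperone, 1.36-fold lower. Of 21 regulators of TOP translation and growth 7 rose (33.3%, beside 15.1% of all tested genes) and 1 fell (4.76%, beside 14.1%). Sesn2, a leucine sensor that restrains mTORC1, had 52.6, 44.1, 43.8 and 35.6 CPM in hydrogel and 17.0, 22.4, 22.2 and 17.3 CPM in liquid, a rise of 1.16 ± 0.14 on the log2 scale (adjusted p 0.000502 by edgeR). The kinase genes Rps6ka1 and Akt1 rose by 0.87 and 0.41, and Rptor, the substrate-binding subunit of mTORC1, by 0.32.

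Mitochondrial ribosomal proteins, encoded in the nucleus for the separate ribosome of that organelle, also gave few calls: 3 of 76 rose (3.95%, beside 15.1% of all tested genes) and 6 fell (7.89%, beside 14.1%), with a median log2 fold change of −0.01. Mrps6, of the mitochondrial small subunit, had 9.20, 10.4, 9.60 and 10.3 CPM in hydrogel and 14.3, 15.2, 16.7 and 14.5 CPM in liquid, a log2 fold change of −0.63 ± 0.09 (SE; adjusted p 0.00127 by edgeR). Mrpl48, Mrps28 and Mrpl54 fell by 0.38, 0.36 and 0.27. Differences between these groups of genes were not tested.

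**Figure D5:**
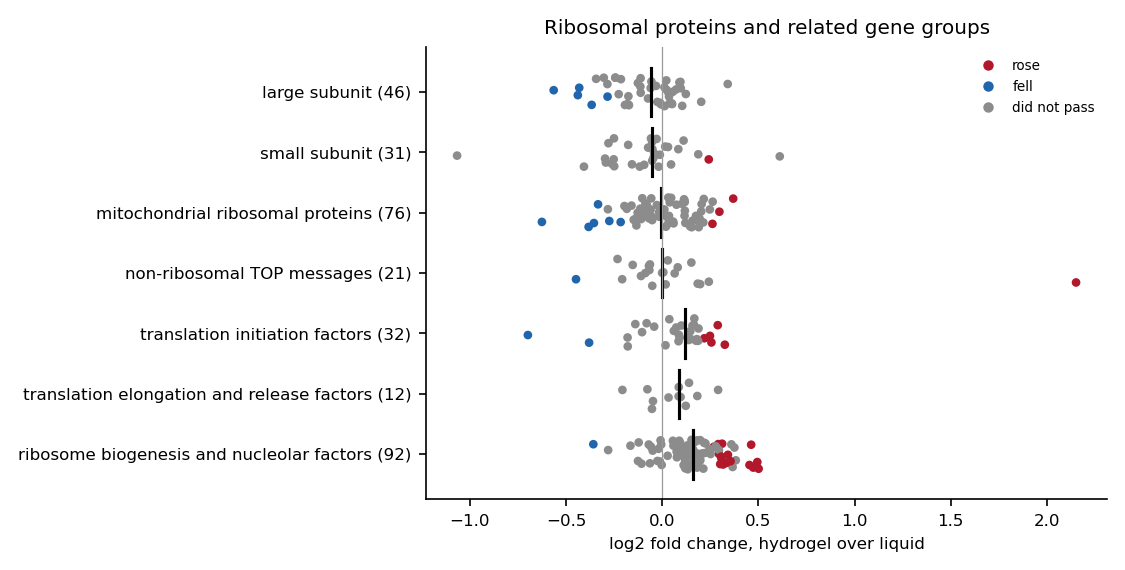
Log2 fold change of hydrogel over liquid for each tested gene of 7 groups, with the number of genes in brackets and the median as a black line. Red genes rose, blue genes fell and grey genes did not pass, and vertical position within a group is arbitrary. Cytosolic ribosomal proteins lie around a median of −0.06, biogenesis factors around 0.16, and the far point on the right is Vim.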

How the data were processed

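The authors deposited a table of raw gene counts, which is the only unit used. The submitters' processing notes name build GRCm39, STAR 2.7.10b, HTSeq 0.13.5 and bcl2fastq, and per the labels' protocols libraries were polyA-selected and stranded. The sources used here give neither the annotation release nor how strand and multiply matching reads were treated in counting. The table listed 27679 genes, 2 stray text lines were left out, and 1145 identifiers without a symbol made up no more than 0.135% of any library. Rps4l, Rpl6l and Rpl32l match the naming rule but are annotated as pseudogenes and were left out.

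All 8 libraries, grouped by their labels, were filtered with filterByExpr, scaled by TMM and fitted for culture alone by the quasi-likelihood method of edgeR 4.0.16 in R 4.3.3, adjusting p-values after Benjamini and Hochberg with a threshold of 0.05. A standard error is the log2 fold change divided by the root of F, and intervals are those of this fit. Alternatives used other scalings and filters, DESeq2 1.42.0, limma 3.58.1, a replicate block, a macrophage covariate and left-out libraries. Scripts were tested on simulated data. Copies were sought with BLAST+ 2.17.0 among GENCODE M21 transcripts, with 1 principal transcript for each member, and windows of 50 bases were matched exactly. Figures used matplotlib 3.10.9 with Python 3.11.15, pandas 2.3.3 and numpy 2.4.6. Replicates of a culture differed by more than sampling noise.

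The members and gene lists were chosen with earlier results of these data known. Named were the 6 members with the highest and the 6 with the lowest log2 fold change, those with the smallest adjusted p in each direction, a panel of paralog pairs and well-known members, the 3 highest and 3 lowest per kb, and up to 4 passing genes of each related list. Other genes were named after their values were seen, namely Rps27rt, Rps3a1, Rpl24, Rpl21, Rps12, Rps25, Rps7, Rps3 and the members with a library far from the others. Some genes that this rule selects are not reported here.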

Additional observations from a re-analysis of the deposited data

Results flagged for a closer look

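In 12 of 166 checked groups of 4 libraries, 1 library stood apart by Dixon's criterion, which chance alone meets in about 1 of 20 groups. Of the members that passed, Rpl27a was low in liquid 3, at 16.2 CPM against 20.9 to 21.4 CPM in the other liquid libraries. Hydrogel 3 was low for Rpl32, at 139 CPM against 158 to 161 CPM, and for Rpl8, at 667 CPM against 724 to 733 CPM in the other hydrogel libraries. Hydrogel 1 was high for Rpl7 at 221 CPM against 209 to 210 CPM, for Rps21 at 86.7 CPM against 71.5 to 72.6 CPM, and for Rps27l at 74.9 CPM against 61.4 to 62.2 CPM. Hydrogel 4 was high for Rps19, at 116 CPM against 103 to 104 CPM, and low for Rpl38, at 0.421 CPM against 1.06 to 1.18 CPM. Liquid 2 was high for Rps27, at 2.14 CPM against 0.902 to 1.06 CPM, and for Rps27a, at 4.31 CPM against 2.33 to 2.66 CPM. Liquid 1 was high for Rps7, at 7.13 CPM against 3.94 to 4.37 CPM. The macrophage marker score of hydrogel 1 was 0.382, against 1.35 to 1.40 in the other hydrogel libraries.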

How the results depend on the processing

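The number of members that rose was 1 with edgeR and TMM. It was 0 with upper-quartile scaling, with no filter on low counts, with the macrophage score as a covariate and at an adjusted p under 0.01. It was 3 without both hydrogel 1 and liquid 2, and 0 to 1 with 1 library left out. The number that fell was 5. It was 1 with library totals alone, 0 with the macrophage score as a covariate, 1 at an adjusted p under 0.01, and 3 to 12 with 1 library left out. The 3 came without hydrogel 2, hydrogel 3, liquid 1 or liquid 4, and the 12 without liquid 3. Over all tested genes 29.3% were called with edgeR and TMM, 30.7% with upper-quartile scaling, 27.4% with library totals alone and 4.32% with the macrophage covariate. For the fits with libraries left out that share was not set beside the counts. Besides the 5, Rps21 of the small subunit and Rpl21 also passed with DESeq2, with upper-quartile scaling and with a filter of at least 1 CPM in 4 libraries. Rps21 passed in 7 of 21 settings, though not in the main one (adjusted p 0.0525 by edgeR). Among the 27 tested members with mostly unique windows (over 50%), 2 fell (7.41%, beside 6.49% of all 77) and 0 rose. Rps2, with 21% unique windows, is outside that subset, so its 0 rises were fixed in advance. With 1 library left out, the members' median log2 fold change ran from −0.12 to −0.01, and the difference in their share of counts ran from −0.01 (without liquid 3) to 0.06 percentage points, beside 0.03 with all libraries. Restricting to mostly unique windows, counting Rps3a1 as a member and leaving each member out of the subunit ratio were chosen after seeing the data.

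With the replicate number as a block, 1 member rose and 10 fell, without the share of all tested genes in that fit beside them. The labels state no shared source for equal numbers, and deviations of same-numbered libraries from their group means correlated at 0.22, 0.33, −0.13 and 0.10, so the numbers were not taken to pair the libraries. Among the named members, log2 fold changes under the alternatives gave 0 reversed calls, 26 lost calls in 6 members and 7 gained calls in 5 members. Of the 26 tested members under 10 CPM 0 passed with edgeR and TMM, beside 29.3% of all tested genes of any level, and the cause was not tested.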

Other observations

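Hydrogel 4 was the lowest hydrogel library for Rps25, a small subunit protein needed for translation from some viral entry sites, at 8.96 CPM against 21.9 to 26.1 CPM in the other hydrogel libraries. The same library was lowest for Rps7, at 2.39 CPM against 3.87 to 7.72 CPM, and for Rps27a, at 1.81 CPM against 3.69 to 4.09 CPM. Of all 8 libraries it was the highest for 9 members and the lowest for 10. These members were picked after their values were seen.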
